A study of Mus musculus with 6 samples.

Results

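The response of natural regulatory T cells (nTregs) to stimulation through the T cell receptor was followed in 4 of the 6 libraries of the study, chosen by their labels: the stimulated and the freshly sorted nTregs of wild type (WT) and YAP cKO mice, compared within each genotype. All animals were C57BL/6. The YAP cKO mice are YAP flox/flox with CD4-Cre, a Cre driven by the CD4 promoter that recombines in T cells of every kind and not in Tregs alone. The nTregs were flow sorted as CD4+, CD25 high cells of either CD62L level from lymph nodes and spleens. Fresh cells were washed and frozen directly after the sort, while stimulated cells were first cultured with plate-bound anti-CD3 (2 µg/ml), soluble anti-CD28 (2 µg/ml) and IL-2 (100 U/ml). The labels give 24 h of culture in the treatment text and 48 h in the extraction text, and the number of mice per library is not stated. Each genotype and state has 1 library of ribosome-depleted, strand-specific total RNA. The other 2 libraries, WT and YAP cKO naive CD4 T cells, also frozen directly after the sort, served to estimate the spread and as a reference level.

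Regulatory T cells hold back other T cells and depend on the transcription factor Foxp3. Signals through the T cell receptor, CD28 and the IL-2 receptor bring resting Tregs into growth and division and are needed for their suppressive function. Within minutes of a signal a T cell transcribes immediate early genes and the feedback inhibitors that end their expression, while growth, metabolic and cell cycle genes follow over hours to days.

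Levels are deposited as FPKM, a count of sequenced fragments scaled for transcript length and library size, and pairs of values are given with WT first and YAP cKO second. A difference is stimulated minus fresh on the log2(FPKM + 1) scale, averaged over both genotypes, with its standard error (SE) from limma and a Benjamini-Hochberg adjusted p. A gene was called at an adjusted p under 0.05. Because log2(FPKM + 1) adds 1 to each value, it understates the change of genes with low FPKM. The error is the spread of the response over genotypes and populations, not over mice, whose number is unknown. In bulk RNA of this kind, fewer cells of a type and less RNA per cell cannot be told apart.

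A large part of the measured genes differed between stimulated and fresh nTregs. The stimulated cells were also cultured and the fresh cells were not, so stimulation and culture cannot be told apart, and "after stimulation" stands for both. Of 11214 genes tested, 2531 rose (22.6%) and 3063 fell (27.3%). A smaller set moved at least 2-fold, 673 upward (6.00%) and 733 downward (6.54%). Of all genes tested, 83.6% had the same sign in WT and in cKO cells. The call rests on the mean of both genotypes, so a called gene of opposite signs could hardly arise, and none of the 5594 was one. The WT and cKO responses had a Pearson r of 0.823 across genes, which are not independent replicates. Among the genes that rose, 292 lay below 1 FPKM in both fresh libraries, and 213 of those that fell lay below 1 FPKM in both stimulated libraries. Fewer genes were called when either fresh library was left out than when either stimulated library was left out. Without a fresh library the spread is estimated from the naive and stimulated pairs, and without a stimulated library from the naive and fresh pairs. A call lost without a library therefore reflects the changed spread as well as the changed difference.

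The scale of the values bears on every direction below. Small RNA genes of the nucleolus and spliceosome, microRNAs and antigen receptor segments together held 37.1% and 36.6% of the FPKM sum in fresh cells but 16.3% and 18.1% in stimulated cells, and the FPKM sum was 837043 and 843746 fresh against 534179 and 595413 stimulated. On the deposited scale the median difference over all genes tested was -0.05. Scaling every library to an equal FPKM sum moved it by 0.51, to 0.46. Scaling to an equal sum without those short features moved it by 0.16. A list median at an equal FPKM sum is therefore to be read against 0.46. Inhibitory checkpoint receptors, for example, lay -0.19 from the median of all genes on the deposited scale and -0.14 from it at an equal FPKM sum. The equal FPKM sum called 6584 genes higher and 1025 lower (86.5% of calls higher). The equal sum without short features called 3588 higher and 2094 lower (63.1%), against 45.2% higher on the deposited scale. Scaling by the median of ratios over the genes tested moved the median by 0.04 and called 2747 higher and 2800 lower (49.5%). No list median changed sign at that scaling. Positive medians of the gene lists were larger at an equal FPKM sum, and negative ones were closer to 0 or positive and are given with each list of T cell genes. Counts of called members in each list are to be read against the 22.6% and 27.3% of all genes. Estimated from the steps between low values, a gene at 5 FPKM on a transcript of 2 kb stood on 71.2 to 92.4 fragments in the 4 libraries. Between 10638 and 10885 genes had at least 1 FPKM. Fewer genes were listed at 0 after stimulation, 4108 in WT and 4861 in cKO, than before it, 9289 and 9086.

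The identity of the cells was checked first. Foxp3 (chromosome X, 7579676 to 7595243 on mm10), the transcription factor that defines Tregs, was 46.6 and 45.9 FPKM in fresh and 56.9 and 57.8 in stimulated nTregs, against 2.98 and 3.30 in naive cells. It was somewhat higher in both stimulated libraries (log2 difference 0.30, SE 0.09, adjusted p = 0.028), but the call was lost when any 1 of the 4 libraries was left out. Cd4, the co-receptor used for the sort, was 178 and 177 fresh and 83.8 and 80.4 stimulated, and it fell (log2 difference -1.10, SE 0.07, adjusted p = 0.00020). Yap1 (chromosome 9, 7931999 to 8004638) was listed at 0 in both fresh libraries and at 0.169 and 0.235 FPKM in the stimulated ones, WT first, below the level needed for a test. The deposited values thus gave no check of the deletion.

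Most markers of other cell types were low in all 4 libraries, and those of B cells were lower after stimulation. The summed B cell markers were 50.3 and 41.6 FPKM in fresh and 12.6 and 12.9 in stimulated nTregs. Of the 4 B cell markers tested, 3 fell: Cd74, the invariant chain of MHC class II, from 30.6 and 26.0 to 4.13 and 6.13, Cd79b, a chain of the B cell receptor, from 12.0 and 11.2 to 4.58 and 2.63, and Cd22, a B cell lectin, from 1.91 and 1.51 to 0.211 and 0.245. Of the defining markers, Ms4a1 was 0.165 and 0.0583 fresh and 0.0710 and 0 stimulated, and Pax5 was listed at 0 in both fresh libraries. Summed myeloid and dendritic markers were 55.5 and 56.6 fresh and 46.6 and 61.1 stimulated, most of it Cst3 (47.0 and 50.6 fresh and 39.2 and 51.2 stimulated). Of 5 myeloid markers tested 1 rose, the lysosomal protein gene Cd68, from 2.41 and 2.86 to 3.97 and 4.04, and this call was lost when any 1 of the 4 libraries was left out. Cd14 was listed at 0 in both fresh libraries. Summed NK and CD8 T cell markers were 12.8 and 11.5 fresh and 8.39 and 9.78 stimulated, with Klra4 listed at 0 throughout, and of 6 tested Klrb1c (log2 difference -0.98) and Cd8b1 (-0.53) fell, the latter call lost without either fresh library. The median of this list, -0.31, turned to 0.071 at an equal FPKM sum. Erythroid and platelet markers summed to 4.27 and 6.31 fresh and 4.69 and 2.43 stimulated, and stromal and endothelial markers to 0.392 and 0.637 fresh and 1.96 and 1.29 stimulated. The part of B cell RNA in other falls was not tested.

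Treg genes rose more often than they fell. Of 29 tested genes of Treg identity and suppression, 14 rose (48.3%), 5 fell (17.2%, a share below that of all genes) and 10 were not called, with a median difference of 0.28. Il2ra (chromosome 2, 11642792 to 11693194), the high-affinity chain of the IL-2 receptor CD25, rose from 75.3 and 63.7 to 295 and 285 FPKM (log2 difference 2.05, SE 0.19, adjusted p = 0.00060). Socs2, an IL-2 and STAT5 induced feedback inhibitor, rose most in the group, from 22.6 and 24.2 to 270.4 and 264 (log2 difference 3.46, SE 0.09, adjusted p = 1.5e-05). Nt5e, the ectonucleotidase CD73 that makes adenosine, rose from 145 and 135 to 404 and 461 (log2 difference 1.62, SE 0.11, adjusted p = 0.00026). For these genes both stimulated libraries lay above both fresh libraries. These genes were named for the size of their called changes, so the separation adds no support.

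The genes of the list that fell included receptors and a transcription factor. Ctla4 (chromosome 1, 60909025 to 60915832), the inhibitory receptor that competes with CD28 for its ligands, was 663 and 604 FPKM in fresh and 285 and 283 in stimulated nTregs (log2 difference -1.15, SE 0.09, adjusted p = 0.00035). Ikzf2, the Ikaros family factor Helios, fell from 184 and 199 to 122 and 127 (log2 difference -0.61, SE 0.08, adjusted p = 0.0020), and at an equal FPKM sum this call was lost. Klrg1, a receptor of terminally differentiated effector Tregs, fell from 30.5 and 56.4 to 4.05 and 7.74 (log2 difference -2.68, SE 0.14, adjusted p = 0.00011). Ebi3, a subunit of IL-35, fell from 8.25 and 6.404 to 3.09 and 3.12 (log2 difference -1.01, SE 0.16, adjusted p = 0.0034). After stimulation all 4 genes still stood above the naive libraries, where Ctla4 was 42.2 and 34.7 and Ikzf2 2.77 and 3.47 FPKM.

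**Figure D1:**
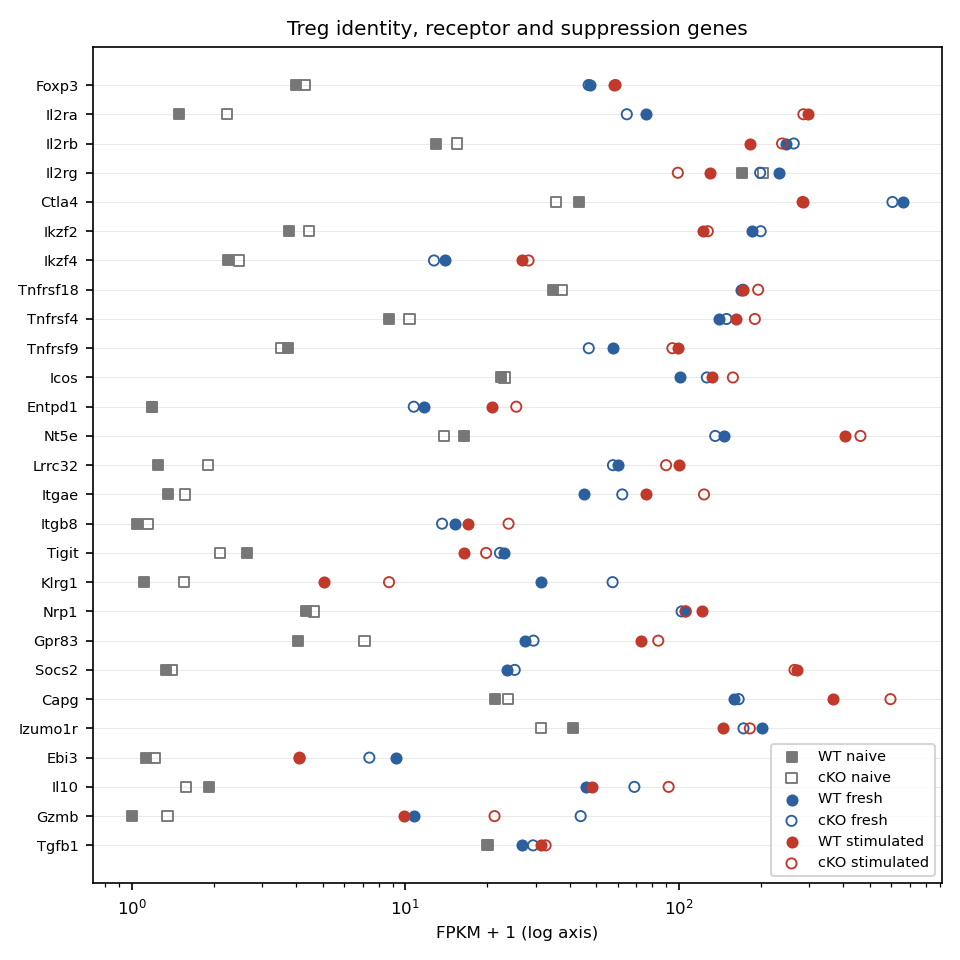
FPKM + 1 on a log axis for Treg identity, receptor and suppression genes in all 6 libraries, with grey squares for naive cells, blue circles for fresh and red circles for stimulated nTregs (filled WT, open YAP cKO). Il2ra, Socs2, Nt5e, Gpr83 and Capg lie higher in both stimulated libraries, Ctla4, Klrg1 and Ebi3 lie higher in both fresh libraries, and Foxp3 moves little.

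The IL-2 receptor and STAT5 response list was divided evenly, with 7 of 19 tested genes higher, 7 lower and a median of 0.13, which turned to -0.01 without the WT stimulated library. Beside Il2ra and Socs2, Lta, the cytokine lymphotoxin alpha, rose from 24.0 and 20.1 to 74.9 and 109 (log2 difference 1.99, SE 0.18, adjusted p = 0.00052), and Osm, the cytokine oncostatin M, from 9.77 and 11.03 to 32.4 and 39.7 (log2 difference 1.70, SE 0.09, adjusted p = 0.00013). Among receptor chains and kinases other than Il2ra, 4 were called lower, and for Il2rb and Jak3 the direction depended on the scaling. Il2rb and Jak3 differed by -0.29 and -0.53 but by 0.28 and 0.025 at an equal FPKM sum. Il2rg, the common gamma chain, was 231 and 198 fresh and 129 and 98.4 stimulated (log2 difference -0.92, SE 0.15, adjusted p = 0.0045), a call lost at an equal FPKM sum, and Jak1, a kinase of the IL-2 receptor, was 179.7 and 155 fresh and 93.1 and 88.4 stimulated (log2 difference -0.87, SE 0.08, adjusted p = 0.00049). Socs3, a feedback inhibitor of cytokine receptors, fell from 97.3 and 103 to 32.1 and 39.8 (log2 difference -1.46, SE 0.08, adjusted p = 0.00015), opposite to Socs2. Pim1, a kinase induced by STAT5, fell from 294 and 358 to 154 and 145 (log2 difference -1.11, SE 0.10, adjusted p = 0.00061).

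Genes of the T cell receptor and its proximal signalling were lower after stimulation on the deposited scale. Of 25 genes of the TCR complex and proximal signalling, 24 fell and 1 rose, against 27.3% and 22.6% of all genes, and the median was -0.74 on the deposited scale and -0.16 at an equal FPKM sum. Themis, a regulator of TCR signal strength, fell from 35.1 and 28.6 to 13.8 and 8.62 FPKM (log2 difference -1.45, SE 0.13, adjusted p = 0.00056). Bcl10, an adaptor that links the TCR to NF-kappaB, fell from 53.2 and 52.3 to 19.9 and 23.7 (log2 difference -1.24). Malt1, a protease that binds Bcl10, was the gene that rose, from 55.4 and 54.0 to 109 and 119 (log2 difference 1.04, SE 0.08, adjusted p = 0.00030).

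Costimulatory receptors were mixed. In the TNF receptor and CD28 families 5 of 19 tested genes rose (26.3%, near the 22.6% of all genes) and 11 fell, with a median of -0.62 that was -0.06 at an equal FPKM sum. Cd28 itself fell from 144 and 139.7 to 41.2 and 39.2 (log2 difference -1.79, SE 0.07, adjusted p = 5.6e-05), Tnfsf11, the ligand RANKL, from 34.1 and 38.8 to 8.83 and 9.68 (log2 difference -1.87, SE 0.17, adjusted p = 0.00058), and Cd82, a tetraspanin, from 118 and 121 to 49.8 and 56.5 (log2 difference -1.16, SE 0.08, adjusted p = 0.00022). Tnfrsf9, the activation-induced receptor 4-1BB, was the clearest rise, from 56.4 and 46.0 to 98.6 and 93.9 (log2 difference 0.91, SE 0.09, adjusted p = 0.00083). Icos, a CD28 family receptor of effector Tregs, was 100.3 and 126 fresh and 131 and 157 stimulated (log2 difference 0.35). Tnfrsf4, which encodes OX40, was 139.7 and 149 fresh and 161 and 189 stimulated (log2 difference 0.28). Both were called higher, but the calls were lost without either fresh library and without the cKO stimulated library. The Tnfrsf4 call was also lost when the 4 nTreg libraries were fitted alone, without the naive libraries.

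Of 14 tested inhibitory checkpoint receptors 3 were higher (21.4%, near the 22.6% of all genes) and 6 lower (42.9%), with a median of -0.23 that turned to 0.32 at an equal FPKM sum. Pdcd1, which encodes PD-1, was 34.3 and 27.7 fresh and 62.2 and 84.6 stimulated (log2 difference 1.21, SE 0.18, adjusted p = 0.0031). Its ligand gene Pdcd1lg2, which encodes PD-L2, rose from 6.17 and 5.86 to 12.5 and 13.8 (log2 difference 1.01, SE 0.13, adjusted p = 0.0017). Btla, a receptor for HVEM, fell from 56.2 and 61.8 to 32.7 and 27.5 (log2 difference -0.95, SE 0.11, adjusted p = 0.0011), as did Ctla4 above. PD-1 RNA was thus higher and CTLA-4 RNA lower in the same stimulated libraries.

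Immediate early genes were among the largest falls of the whole comparison, with Fos first. Of 24 tested immediate early and AP-1 factors, 19 fell, 16 of them at least 2-fold, and 2 rose, with a median of -1.87 that was -1.31 at an equal FPKM sum. Fos (chromosome 12, 85473890 to 85477274), a subunit of AP-1, was 351 and 401 FPKM in fresh and 4.88 and 4.79 in stimulated nTregs (log2 difference -6.01, SE 0.13, adjusted p = 7.5e-06). Junb, another AP-1 subunit, fell from 1254 and 1164 to 57.9 and 82.5 (log2 difference -4.11, SE 0.15, adjusted p = 4.8e-05), and Fosb from 59.6 and 62.5 to 0.854 and 0.602 (log2 difference -5.17, SE 0.21, adjusted p = 6.2e-05). Dusp1, a phosphatase that switches MAP kinases off, fell from 366 and 461 to 7.49 and 9.94 (log2 difference -5.42, SE 0.07, adjusted p = 8.3e-07). The naive libraries, sorted and frozen in the same way as the fresh nTregs, were also high, with Fos at 222 and 318, Junb at 1289 and 1356 and Dusp1 at 119 and 151 FPKM. The 2 genes that rose were Egr2, a zinc finger factor downstream of NFAT, from 11.7 and 16.4 to 37.8 and 47.0 (log2 difference 1.54, SE 0.10, adjusted p = 0.00018), and Egr3, from 4.41 and 4.45 to 8.75 and 8.76 (log2 difference 0.85, SE 0.12, adjusted p = 0.0025).

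Most genes of the NF-kappaB list, inhibitors among them, were lower. Among NF-kappaB subunits, targets and inhibitors, 19 of 24 genes fell and 3 rose (median -0.89, or -0.34 at an equal FPKM sum). Tnfaip3 (chromosome 10, 19000910 to 19015410), the ubiquitin-editing enzyme A20 that ends NF-kappaB signalling, fell from 894 and 902 FPKM in fresh to 15.7 and 16.2 in stimulated nTregs (log2 difference -5.73, SE 0.09, adjusted p = 1.6e-06). Nfkbia, the inhibitor IkappaB alpha, fell from 506 and 662 to 71.4 and 75.8 (log2 difference -2.96, SE 0.10, adjusted p = 3.4e-05), and Nfkbid, a nuclear IkappaB protein, from 90.7 and 98.9 to 17.0 and 20.9 (log2 difference -2.27, SE 0.09, adjusted p = 5.0e-05). In naive cells Tnfaip3 was 629 and 738 and Nfkbia 367 and 456 FPKM. Cflar, which encodes the caspase-8 inhibitor c-FLIP, rose from 33.9 and 36.9 to 50.6 and 58.9 (log2 difference 0.61, SE 0.08, adjusted p = 0.0017). The other 2 that rose were Tnip2, an inhibitor that binds A20, with a log2 difference of 0.51, and the subunit gene Nfkb1, with 0.34. Their calls were lost without the cKO fresh library, and that of Nfkb1 also without the WT fresh library.

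Of 21 MAP kinase and TCR feedback inhibitors 15 fell and 2 rose, with a median of -0.62 on the deposited scale and -0.088 at an equal FPKM sum. Dusp10, a phosphatase of JNK and p38, fell from 152 and 138 to 7.91 and 6.59 (log2 difference -4.15, SE 0.07, adjusted p = 2.9e-06), and Dusp5, a nuclear phosphatase of ERK, from 131 and 126 to 27.6 and 30.3 (log2 difference -2.11, SE 0.12, adjusted p = 0.00013). Sla, an adaptor that lowers the TCR at the surface, fell from 179 and 189 to 41.5 and 42.8 (log2 difference -2.10, SE 0.09, adjusted p = 6.6e-05). Spred1, an inhibitor of the RAS pathway, rose from 7.31 and 6.53 to 13.6 and 15.3 (log2 difference 0.97, SE 0.12, adjusted p = 0.0017), as did the phosphatase gene Dusp14, from 3.93 and 5.98 to 8.96 and 11.3 (log2 difference 0.92), a call lost without the WT fresh library. Rgs2, a regulator of G protein signalling, fell from 188 and 212 to 8.30 and 9.18 (log2 difference -4.36, SE 0.07, adjusted p = 1.9e-06). It was the steepest of the 5 falls among 9 tested members of its family, whose median of -0.41 turned to 0.13 at an equal FPKM sum, while Rgs16, named after its values were seen, stood at 125 and 116 fresh and 100.5 and 131 stimulated with no call.

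Factors that destroy short-lived messages fell more often than they rose on the deposited scale. Of 23 RNA decay genes 11 fell (47.8%) and 5 rose (21.7%, near the 22.6% of all genes). The median of -0.23 turned to 0.19 at an equal FPKM sum. Zfp36, which binds AU-rich elements of cytokine messages, fell from 241 and 278 to 18.8 and 21.8 (log2 difference -3.61, SE 0.12, adjusted p = 3.6e-05). Zc3h12a, the endonuclease Regnase-1, fell from 51.5 and 52.2 to 8.90 and 10.3 (log2 difference -2.32, SE 0.09, adjusted p = 4.8e-05), and Btg2, an antiproliferative protein that recruits the deadenylase, from 189.9 and 178 to 38.5 and 40.4 (log2 difference -2.19, SE 0.08, adjusted p = 4.7e-05). N4bp1, an RNA-binding endonuclease, rose from 12.8 and 13.8 to 23.6 and 32.3 (log2 difference 1.00, SE 0.12, adjusted p = 0.0014).

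**Figure D2:**
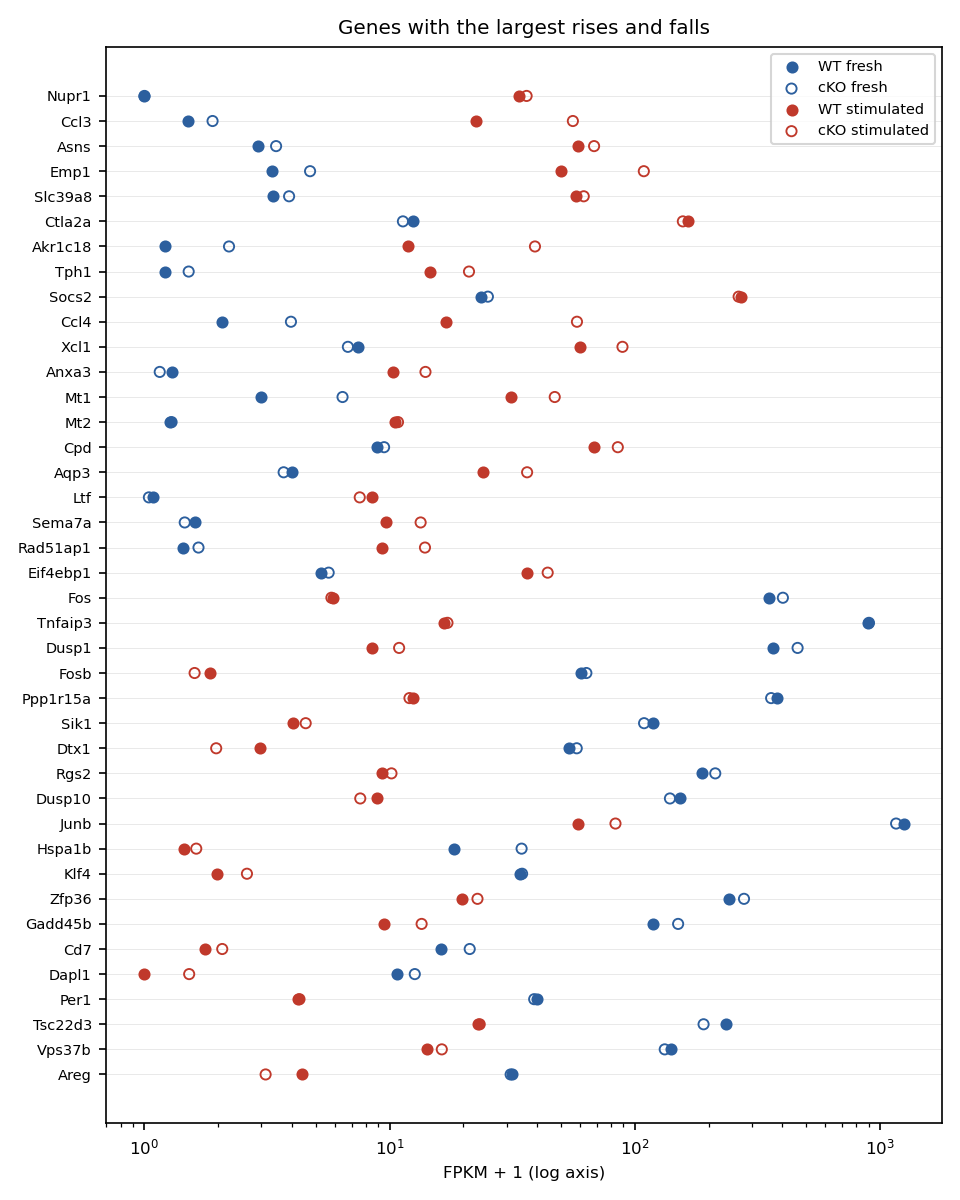
FPKM + 1 on a log axis in the 4 nTreg libraries (blue fresh, red stimulated, filled WT, open YAP cKO) for the 20 genes with the largest rises, from Nupr1, and the 20 with the largest falls, from Fos. In each row both red points lie on 1 side of both blue points, which follows from the choice of genes with the largest called changes.

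The largest rises mixed stress, zinc, chemokine and growth genes. Nupr1 (chromosome 7, 126623246 to 126625470), a small chromatin protein induced by nutrient stress, was listed at 0 in all fresh and naive libraries and stood at 32.6 and 35.2 FPKM after stimulation (adjusted p = 1.5e-05). Slc39a8, the zinc importer ZIP8, rose from 2.34 and 2.89 to 56.6 and 60.9 (log2 difference 4.05, SE 0.11, adjusted p = 1.6e-05). The metallothioneins Mt1 and Mt2, which bind zinc, rose from 2.00 and 5.43 to 30.3 and 46.2 (log2 difference 3.13, SE 0.34, adjusted p = 0.00095) and from 0.275 and 0.290 to 9.48 and 9.82 (log2 difference 3.05, SE 0.14, adjusted p = 7.6e-05). These were 3 of the 6 rises among 18 tested metallothionein and zinc transporter genes, whose median was 0.12. Tph1, the first enzyme of serotonin synthesis outside the brain, was 0.218 and 0.515 fresh and 13.7 and 20.1 stimulated (log2 difference 3.69, SE 0.17, adjusted p = 8.0e-05), and Aqp3, a water and glycerol channel, was 3.01 and 2.70 fresh and 23.0 and 35.4 stimulated (log2 difference 2.94, SE 0.29, adjusted p = 0.00072). Emp1, a membrane protein of the claudin-like PMP22 family, rose from 2.32 and 3.74 to 49.1 and 108 (log2 difference 4.22, SE 0.23, adjusted p = 0.00012), with the cKO stimulated library above the WT one.

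Several chemokines rose, while the cytokine and chemokine genes as a group went in both directions. Of 16 tested cytokines and chemokines, 6 rose and 6 fell, and the median of 0.01 turned negative with a pseudocount of 0.1. Ccl3 and Ccl4, inflammatory chemokines of activated T cells, rose from 0.509 and 0.896 to 21.5 and 54.9 (log2 difference 4.39, SE 0.28, adjusted p = 0.00020) and from 1.08 and 2.96 to 16.0 and 57.1 (log2 difference 3.45, SE 0.51, adjusted p = 0.0028). The annotated spans of Ccl3 (chromosome 11, 83647843 to 83649378) and Ccl4 (83648624 to 83664683) overlap, and fragments may be shared between them. Xcl1, the ligand of dendritic cells that carry XCR1, rose from 6.43 and 5.76 to 58.9 and 88.1 (log2 difference 3.37, SE 0.37, adjusted p = 0.00097). The cKO stimulated library held the higher value for each of these chemokines. Areg, the tissue repair factor amphiregulin, fell from 30.6 and 30.2 to 3.40 and 2.12 (log2 difference -3.08, SE 0.16, adjusted p = 0.00012), and Ccl5 from 16.8 and 36.1 to 2.63 and 3.80 (log2 difference -2.62, SE 0.27, adjusted p = 0.00083). Ifng, the type II interferon, was 17.7 and 33.2 fresh and 4.02 and 15.6 stimulated FPKM, with wide spread between genotypes, and its call (log2 difference -1.47, adjusted p = 0.034) was lost without either fresh library and without the WT stimulated library.

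Chemokine and lipid trafficking receptors changed in composition, with 6 of 20 tested genes higher and 12 lower (median -0.82, or -0.26 at an equal FPKM sum). Gpr183, the oxysterol receptor EBI2, fell from 51.2 and 40.3 to 8.07 and 6.38 (log2 difference -2.51, SE 0.08, adjusted p = 3.3e-05), and Cxcr4, a homing receptor for CXCL12, from 164 and 149.7 to 52.1 and 48.1 (log2 difference -1.62, SE 0.08, adjusted p = 0.00011). Among the 6 that rose were Cxcr6, from 14.9 and 20.4 to 55.6 and 122 (log2 difference 2.18, SE 0.23, adjusted p = 0.00088), and Ccr8, from 41.5 and 43.8 to 75.1 and 122 (log2 difference 1.15, SE 0.18, adjusted p = 0.0034). Integrins and adhesion receptors had 3 of 21 higher and 12 lower, and their median of -0.41 turned to 0.14 at an equal FPKM sum. Itgb3, the beta 3 integrin chain, fell from 15.1 and 17.2 to 1.57 and 2.04 (log2 difference -2.61, SE 0.10, adjusted p = 5.5e-05), whereas Itgae, the CD103 chain that binds E-cadherin, rose from 44.0 and 61.3 to 74.7 and 123 (log2 difference 0.87, SE 0.13, adjusted p = 0.0031) and Alcam, the ligand of CD6, from 5.07 and 6.74 to 28.2 and 33.5 (log2 difference 2.21, SE 0.12, adjusted p = 0.00012).

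Transcription factors induced by the TCR did not move as a block. Of 24 tested, 7 rose and 10 fell, with a median of 0.16 that turned to -0.02 without the cKO stimulated library. Irf8, an interferon regulatory factor, rose from 7.59 and 10.4 to 43.1 and 74.7 (log2 difference 2.55, SE 0.13, adjusted p = 0.00011). Myc (chromosome 15, 61985341 to 61990361), the driver of growth and metabolism, rose from 21.7 and 27.1 to 93.1 and 87.0 (log2 difference 1.85, SE 0.16, adjusted p = 0.00049). Bhlhe40, a repressor tied to cytokine production, fell from 131 and 132 to 31.9 and 33.7 (log2 difference -1.97, SE 0.08, adjusted p = 6.0e-05), and Id2, an inhibitor of E proteins, from 71.9 and 95.3 to 36.6 and 40.4 (log2 difference -1.09, SE 0.09, adjusted p = 0.00043). Batf, the AP-1 partner of IRF4, fell from 63.2 and 82.6 to 34.9 and 47.4 (log2 difference -0.81, SE 0.08, adjusted p = 0.00072).

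Genes of amino acid supply rose together. Among ATF4 targets and genes of amino acid and one-carbon metabolism, 23 of 30 tested genes rose, 16 of them at least 2-fold, and 3 fell, with a median of 1.15. A further 4 members lay below the expression filter and were not tested. Asns (chromosome 6, 7675165 to 7693209), asparagine synthetase, was 1.90 and 2.44 FPKM in fresh and 57.5 and 67.3 in stimulated nTregs (log2 difference 4.32, SE 0.17, adjusted p = 5.5e-05), and 0.221 and 0 in naive cells. Eif4ebp1, the translation repressor 4E-BP1, rose from 4.26 and 4.64 to 35.3 and 43.2 (log2 difference 2.88, SE 0.17, adjusted p = 0.00015), and Slc1a4, a transporter of neutral amino acids, from 0.304 and 0.380 to 8.70 and 8.97 (log2 difference 2.87, SE 0.14, adjusted p = 9.2e-05). Chac1, which breaks down glutathione, rose from 0.0745 and 0.158 to 4.89 and 8.08 (log2 difference 2.71, SE 0.21, adjusted p = 0.00036). These genes were named for the size of their called changes, so the separation of their fresh from their stimulated values adds no support.

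The factor that gives the list its name did not rise. Atf4, the translationally controlled factor of the amino acid response, was 265 and 235 fresh and 162 and 165 stimulated (log2 difference -0.61, SE 0.08, adjusted p = 0.0021), a call lost at an equal FPKM sum. Slc38a2, a glutamine transporter, fell from 131 and 129 to 70.0 and 60.8 (log2 difference -0.98, SE 0.08, adjusted p = 0.00044). The cytosolic aminoacyl-tRNA synthetases, which charge tRNA with amino acids, rose in 18 of 23 genes and fell in 0, 13 of them by at least 2-fold, with a median of 1.09. Cars, for cysteine, rose from 8.32 and 7.63 to 36.8 and 36.3 (log2 difference 2.07, SE 0.09, adjusted p = 7.5e-05), Gars, for glycine, from 34.5 and 38.2 to 109 and 121 (log2 difference 1.64, SE 0.09, adjusted p = 0.00014), and Iars, for isoleucine, from 12.6 and 11.5 to 39.9 and 35.6 (log2 difference 1.57, SE 0.08, adjusted p = 0.00012).

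Promoters of these genes are shown because many of them rose together and because ATF4 binds a short element. The letters TGATGNAA, on either strand, were searched in RefSeq promoters of build GRCm38.p6, from 250 bases before to 50 bases after each start. They were present in 8 of 28 promoters of the ATF4 and amino acid list (28.6%) and in 5 of 16 of the synthetase list (31.2%), against 4.51% of 27025 genes. Here and below, such shares compare letters alone, in lists drawn up by known function. They use no expression values and say nothing of this response. All 5 synthetase genes with a match rose. Of the 8 genes on the other list 4 rose, 0 fell and the rest were not called or not tested. Among all tested members, 78.3% of the synthetase list and 76.7% of the ATF4 and amino acid list rose. Capitals mark the match, which is given as its reverse complement where it lies on the other strand. Asns lies at chr6:7693160-7693459, minus strand, Chac1 at chr2:119350992-119351291, plus strand, and Gars at chr6:55037751-55038050, plus strand.
Asns: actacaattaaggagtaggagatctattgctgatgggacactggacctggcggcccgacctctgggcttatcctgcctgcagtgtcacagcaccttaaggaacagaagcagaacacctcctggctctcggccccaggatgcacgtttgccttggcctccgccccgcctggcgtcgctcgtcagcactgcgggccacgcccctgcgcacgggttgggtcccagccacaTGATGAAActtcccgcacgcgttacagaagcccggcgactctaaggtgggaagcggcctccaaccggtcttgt
Chac1: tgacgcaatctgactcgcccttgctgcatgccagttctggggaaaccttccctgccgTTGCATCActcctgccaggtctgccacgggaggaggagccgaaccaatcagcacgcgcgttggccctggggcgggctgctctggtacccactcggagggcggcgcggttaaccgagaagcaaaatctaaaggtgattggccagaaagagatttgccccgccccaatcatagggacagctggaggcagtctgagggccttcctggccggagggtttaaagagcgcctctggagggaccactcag
Gars: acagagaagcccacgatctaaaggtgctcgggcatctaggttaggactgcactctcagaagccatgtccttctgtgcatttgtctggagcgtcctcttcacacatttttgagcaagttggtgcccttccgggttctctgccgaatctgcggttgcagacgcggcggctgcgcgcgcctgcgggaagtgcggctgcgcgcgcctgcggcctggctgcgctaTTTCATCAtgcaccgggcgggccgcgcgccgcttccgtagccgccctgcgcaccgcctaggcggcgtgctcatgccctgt
The Asns match begins at position -23 from the start, the Gars match at -30 and the Chac1 match at -193. A match describes letters in a window and not a bound site.

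**Figure D3:**
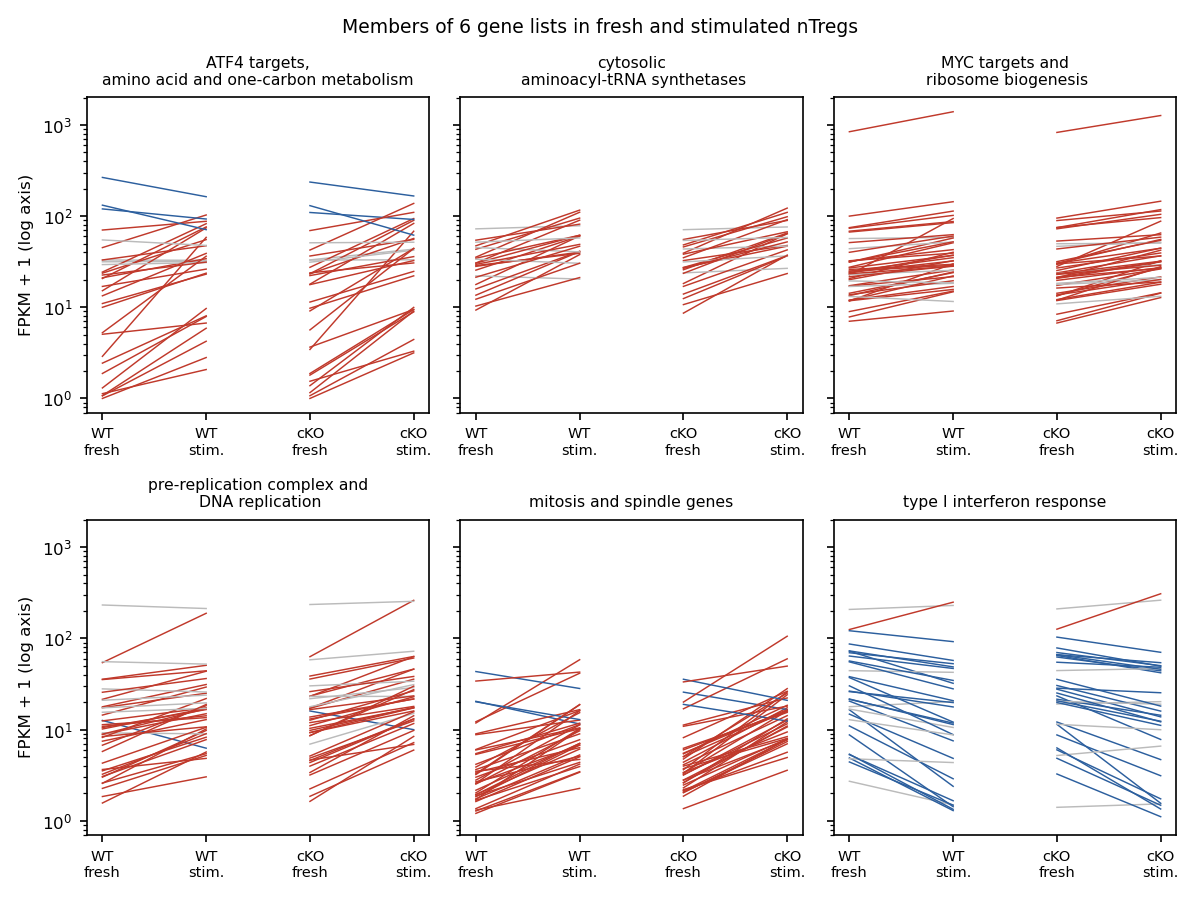
Each line joins FPKM + 1 (log axis) of 1 tested gene in the fresh and stimulated library of a genotype, for 6 gene lists, with red for genes called higher, blue for genes called lower and grey for no call. Lines of the amino acid, synthetase, MYC, replication and mitosis lists mostly slope upward and those of the interferon list downward, in WT and in cKO alike.

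Ribosome assembly factors rose, while structural proteins of the cytosolic ribosome mostly were not called. Of 42 MYC targets and ribosome biogenesis genes, 36 rose and 0 fell (median 0.52). Beside Myc itself, Rrp1b, a nucleolar factor of ribosomal RNA processing, rose from 10.7 and 12.3 to 29.0 and 31.4 (log2 difference 1.32, SE 0.09, adjusted p = 0.00022), Noc4l, a factor of small subunit assembly, from 10.9 and 10.95 to 21.1 and 26.9 (log2 difference 1.06, SE 0.11, adjusted p = 0.00088), and Nhp2, a core protein of box H/ACA particles, from 26.5 and 28.5 to 50.02 and 64.3 (log2 difference 1.02, SE 0.12, adjusted p = 0.0013). The E-box CACGTG was present in 7 of 36 promoters of this list (19.4%) and in 8.09% of all genes. Mitochondrial ribosomal proteins rose in 31 of 76 genes and fell in 2 (median 0.25), with Mrps6 from 30.7 and 26.3 to 60.6 and 79.9 (log2 difference 1.26, SE 0.15, adjusted p = 0.0014). Cytosolic ribosomal proteins rose in 2 of 77 and fell in 20, and their median of -0.19 turned to 0.38 at an equal FPKM sum. Rps29 was 4251 and 4639 fresh and 1905 and 2896 stimulated, with the WT stimulated library lowest (log2 difference -0.92, SE 0.18, adjusted p = 0.0084), and its call was lost without either fresh library and at an equal FPKM sum. Rpl26 rose from 21.2 and 36.1 to 55.5 and 93.6 (log2 difference 1.35, SE 0.17, adjusted p = 0.0015), but it has near-identical copies, and with the deposited gene names its difference was -0.24.

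Cell division genes formed the other large rise. Of 39 genes of the pre-replication complex and DNA replication, 31 rose and 1 fell (median 0.84). Mcm6 (chromosome 1, 128331575 to 128359705), a subunit of the replicative helicase, rose from 53.2 and 61.9 to 187 and 260.4 (log2 difference 1.93, SE 0.11, adjusted p = 0.00014). Mcm10, which activates that helicase, rose from 0.562 and 0.628 to 4.67 and 7.40 (log2 difference 2.11, SE 0.18, adjusted p = 0.00043), and Cdc45, its partner, from 2.00 and 2.38 to 8.77 and 13.2 (log2 difference 1.88, SE 0.15, adjusted p = 0.00038). Uhrf1, which guides maintenance of DNA methylation, rose from 4.75 and 7.54 to 17.8 and 28.9 (log2 difference 1.76, SE 0.12, adjusted p = 0.00021). The gene that fell was the licensing factor Cdt1, from 11.6 and 15.0 to 5.24 and 8.97 (log2 difference -0.85, SE 0.13, adjusted p = 0.0029). In nucleotide synthesis 19 of 25 genes rose and 1 fell (median 0.62), led by Rrm2, the small subunit of ribonucleotide reductase, from 5.59 and 7.99 to 22.1 and 37.4 (log2 difference 1.95, SE 0.20, adjusted p = 0.00087).

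Mitosis and spindle genes had the highest median of all lists, 1.54, with 36 of 39 tested genes higher, 31 of them at least 2-fold, and 3 lower. Nusap1, a spindle protein, rose from 1.57 and 2.30 to 15.1 and 23.0 FPKM (log2 difference 2.75, SE 0.16, adjusted p = 0.00016). Ube2c, the ubiquitin-conjugating enzyme of the anaphase-promoting complex, rose from 2.21 and 2.62 to 17.7 and 24.9 (log2 difference 2.69, SE 0.16, adjusted p = 0.00015), and Ccna2, cyclin A2, from 2.28 and 3.75 to 17.8 and 27.1 (log2 difference 2.54, SE 0.13, adjusted p = 0.00010). In each of them the cKO stimulated library was the highest. The 3 that fell were Cdc25b, a phosphatase of mitotic entry, Cenpa, the centromeric histone, and Pttg1, securin, with log2 differences of -0.73, -0.63 and -0.69, and at an equal FPKM sum their calls were lost.

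G1 regulators showed both brakes and drivers moving, with 12 of 23 tested genes higher (52.2%) and 6 lower (26.1%, near the 27.3% of all genes). The median was 0.39. Cdk6, a kinase of G1, rose from 16.2 and 15.4 to 51.2 and 53.2 (log2 difference 1.66, SE 0.11, adjusted p = 0.00023). The CDK inhibitors Cdkn1a, which encodes p21, and Cdkn2b, which encodes p15, rose from 2.69 and 3.73 to 9.80 and 15.0 (log2 difference 1.66, SE 0.16, adjusted p = 0.00063) and from 0.256 and 0.451 to 4.83 and 3.90 (log2 difference 1.99, SE 0.18, adjusted p = 0.00056). Other brakes fell. Cdkn2d, which encodes p19, was 32.1 and 42.5 fresh and 6.60 and 13.2 stimulated (log2 difference -1.87, SE 0.14, adjusted p = 0.00031), and Cdkn1b, which encodes p27, was 152 and 147 fresh and 92.2 and 76.5 stimulated (log2 difference -0.82, SE 0.08, adjusted p = 0.00075), the latter call lost at an equal FPKM sum.

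A promoter of each division group is shown because E2F factors act on replication genes and a cell cycle element (CHR) on mitotic genes. TTTNGCGC was present in 13 of 32 promoters of the replication list (40.6%) against 1.57% of all genes, and 12 of those 13 genes rose while Cdt1 fell. TTTGAA was present in 25 of 34 promoters of the mitosis list (73.5%) against 20.2% of all genes, and 24 of those 25 rose while Cenpa fell. Among all tested members of the replication and mitosis lists, 79.5% and 92.3% rose. Capitals mark the matches, overlapping ones joined. Mcm6 lies at chr1:128359656-128359955, minus strand and Ube2c at chr2:164769679-164769978, plus strand, both on GRCm38.p6 from RefSeq.
Mcm6: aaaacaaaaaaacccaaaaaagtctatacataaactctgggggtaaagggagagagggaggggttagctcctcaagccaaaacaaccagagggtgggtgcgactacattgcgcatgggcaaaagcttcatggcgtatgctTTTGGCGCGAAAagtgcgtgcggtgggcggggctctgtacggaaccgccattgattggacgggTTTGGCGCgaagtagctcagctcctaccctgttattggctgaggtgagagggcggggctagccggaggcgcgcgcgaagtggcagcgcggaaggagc
Ube2c: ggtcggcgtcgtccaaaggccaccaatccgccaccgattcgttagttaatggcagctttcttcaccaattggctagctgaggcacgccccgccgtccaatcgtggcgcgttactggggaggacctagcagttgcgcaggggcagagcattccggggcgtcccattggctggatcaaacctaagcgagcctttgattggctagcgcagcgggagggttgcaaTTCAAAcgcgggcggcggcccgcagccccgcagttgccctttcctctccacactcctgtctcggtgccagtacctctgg
The Mcm6 window held 3 matches and the Ube2c window 1, beginning at position -29 from the start.

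Quiescence genes fell while these rose. Of 28 naive and quiescent T cell genes 24 fell and 1 rose (median -1.05, or -0.49 at an equal FPKM sum). Tsc22d3, the glucocorticoid-induced protein GILZ, fell from 235 and 189.9 to 22.0 and 22.3 (log2 difference -3.20, SE 0.12, adjusted p = 4.8e-05), Rasgrp2, an activator of the small GTPase RAP1, from 48.7 and 47.3 to 6.23 and 4.76 (log2 difference -2.93, SE 0.11, adjusted p = 5.0e-05), and Satb1, a chromatin organizer of T cells, from 63.4 and 54.7 to 18.1 and 13.2 (log2 difference -1.86, SE 0.11, adjusted p = 0.00014). Foxp1, a factor of T cell quiescence, was the member that was called higher, 58.4 and 47.1 fresh and 72.5 and 58.6 stimulated, and that call was lost without either fresh library and without the WT stimulated library. All 8 GIMAP genes, small GTPases of lymphocyte survival, fell (median -1.07, or -0.50 at an equal FPKM sum). Gimap6 was 739 and 688 fresh and 162 and 139.9 stimulated (log2 difference -2.24, SE 0.08, adjusted p = 4.8e-05), and Gimap7 was 114 and 93.8 fresh and 29.9 and 19.4 stimulated (log2 difference -2.05, SE 0.11, adjusted p = 0.00012).

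**Figure D4:**
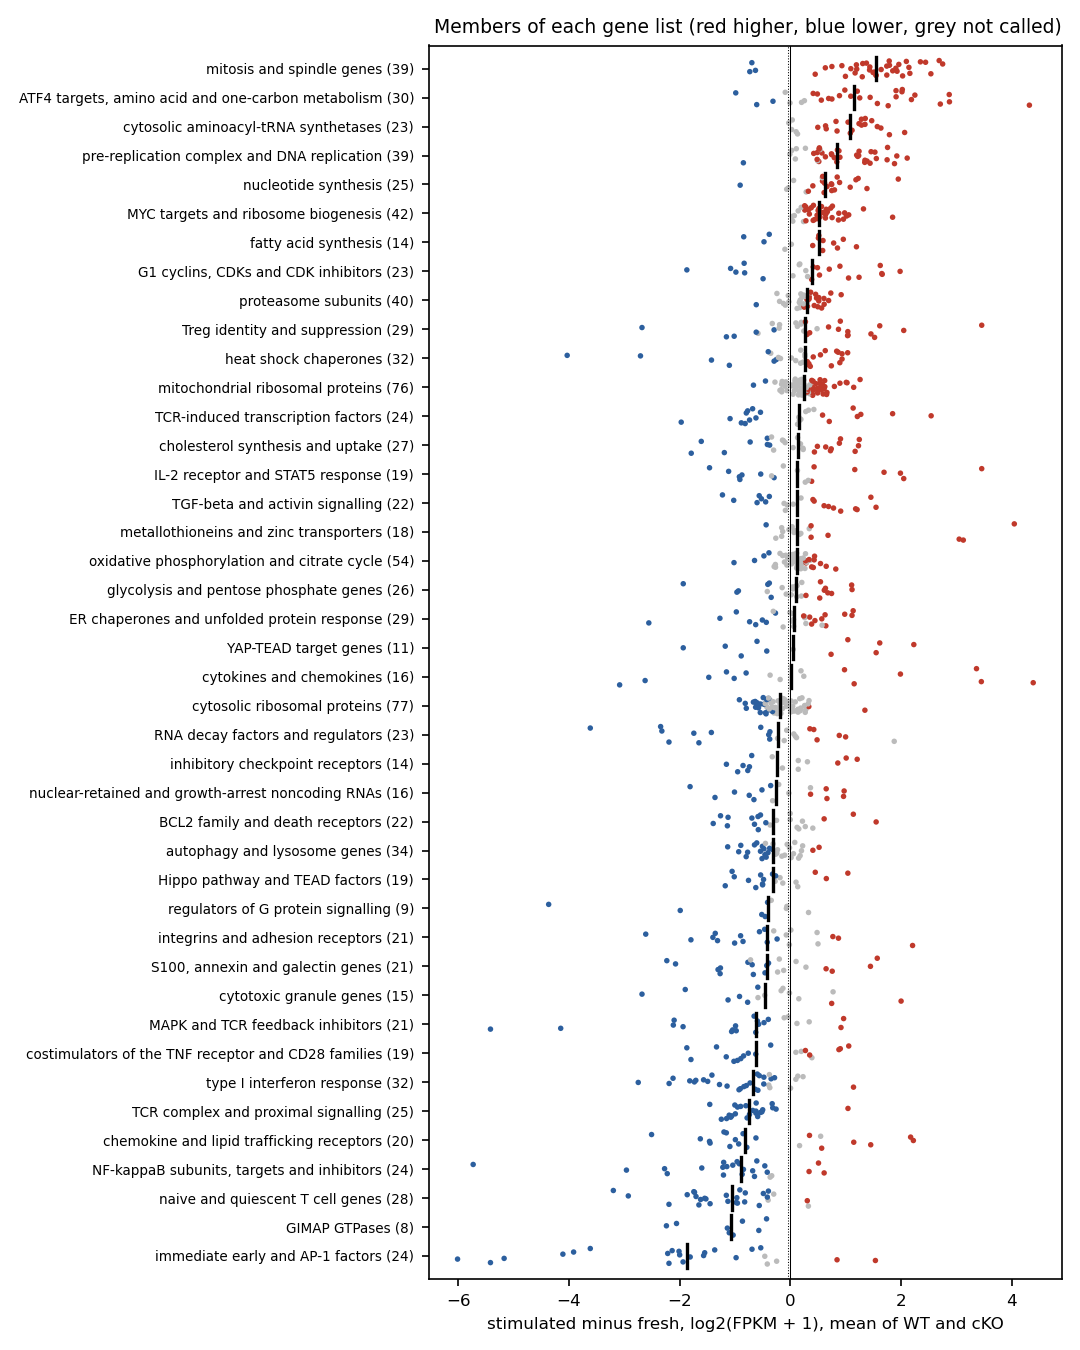
Differences between stimulated and fresh nTregs on the log2(FPKM + 1) scale for the tested members of 42 gene lists, whose number follows each name, with red points called higher, blue lower and grey not called. Black bars are list medians and the dotted line is the median of all genes, -0.05. Mitosis (1.54) and amino acid genes (1.15) stand at the top and immediate early genes (-1.87) at the bottom. From cytosolic ribosomal proteins to S100 genes, 10 of the negative medians turned positive at an equal FPKM sum. At that scaling the median of all genes was 0.46.

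Type I interferon response genes were lower after stimulation. Of 32 tested, 24 fell, 11 of them at least 2-fold, and 1 rose, with a median of -0.68 that was -0.17 at an equal FPKM sum. Mx1, an antiviral dynamin-like GTPase, fell from 7.73 and 10.4 to 0.424 and 0.553 FPKM (log2 difference -2.75, SE 0.20, adjusted p = 0.00029). Isg15, a ubiquitin-like modifier, was 15.5 and 22.4 fresh and 1.38 and 6.78 stimulated (log2 difference -2.19, SE 0.26, adjusted p = 0.0014), with a wide gap between WT and cKO after stimulation and a near-identical copy elsewhere in the annotation. Rsad2, the antiviral enzyme viperin, fell from 4.36 and 5.29 to 0.333 and 0.343 (log2 difference -2.12, SE 0.26, adjusted p = 0.0015), and Oas2, a sensor of double-stranded RNA, from 3.88 and 3.83 to 0.290 and 0.476 (log2 difference -1.82, SE 0.17, adjusted p = 0.00058). Ifi47, an immunity-related GTPase known for its response to interferon gamma, was the gene that rose, from 124 and 125 to 248 and 308 (log2 difference 1.14, SE 0.10, adjusted p = 0.00052).

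The promoter of Isg15 is shown because its interferon-responsive element is a well known one. The letters GAAANNGAA, on either strand, were present in 14 of 23 promoters of the interferon list (60.9%) against 9.76% of all genes. Of those 14 genes 11 fell and 0 rose, while 75% of all tested members of the list fell. The window lies at chr4:156200769-156201068, minus strand of GRCm38.p6 (RefSeq), and capitals mark 3 overlapping matches.
Isg15: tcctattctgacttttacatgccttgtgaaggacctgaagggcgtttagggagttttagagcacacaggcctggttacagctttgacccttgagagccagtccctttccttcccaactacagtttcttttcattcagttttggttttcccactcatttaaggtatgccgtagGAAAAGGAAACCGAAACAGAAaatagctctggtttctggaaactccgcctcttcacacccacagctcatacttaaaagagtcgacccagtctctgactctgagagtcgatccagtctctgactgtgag

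Proteasome genes rose more often than they fell, while genes of the endoplasmic reticulum (ER) fell about as often as all genes. Of 40 proteasome subunits 21 rose, 0 of them by at least 2-fold, 1 fell and 18 were not called (median 0.30). The largest rise was that of Psmd7, from 24.1 and 22.2 to 43.4 and 46.0 (log2 difference 0.92, SE 0.09, adjusted p = 0.00062). The immunoproteasome subunit gene Psmb10 fell from 66.6 and 72.8 to 39.1 and 52.1 (log2 difference -0.61, SE 0.09, adjusted p = 0.0033), a call lost at an equal FPKM sum. ER chaperone and unfolded protein response genes had 10 of 29 tested higher (34.5%) and 8 lower (27.6%, near the 27.3% of all genes), with a median of 0.06. Hspa5, the ER chaperone BiP, fell from 555 and 529 to 206 and 244 (log2 difference -1.27, SE 0.11, adjusted p = 0.00049), and Dnajb9, its co-chaperone, from 95.3 and 91.9 to 16.1 and 14.2 (log2 difference -2.56, SE 0.08, adjusted p = 3.4e-05). Pdia4, a disulfide isomerase of the same compartment, rose from 63.6 and 63.4 to 136 and 141 (log2 difference 1.12, SE 0.07, adjusted p = 0.00020).

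Of 32 tested heat shock chaperones 15 rose (46.9%) and 7 fell (21.9%, below the 27.3% of all genes), with a median of 0.27. Hspa1b, an HSP70 gene, was 17.3 and 33.6 fresh and 0.457 and 0.627 stimulated (log2 difference -4.03, SE 0.18, adjusted p = 8.0e-05), and Hspa1a was 4.39 and 11.9 fresh and 0.204 and 0.354 stimulated (log2 difference -2.71, SE 0.26, adjusted p = 0.00064). These genes are near-identical copies of each other, so their reads may be divided between them in either way. Dnajb1, an HSP40 co-chaperone, fell from 69.4 and 71.9 to 22.9 and 28.9 (log2 difference -1.42, SE 0.11, adjusted p = 0.00037). In naive cells Hspa1b was 16.5 and 24.5 and Dnajb1 96.4 and 90.2 FPKM, near or above the lower fresh nTreg value.

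Oxidative phosphorylation and citrate cycle genes rose in 10 of 54 and fell in 4 (median 0.11), shares below the 22.6% and 27.3% of all genes. Idh2, mitochondrial isocitrate dehydrogenase, fell from 13.5 and 17.3 to 6.22 and 7.98 (log2 difference -1.02, SE 0.09, adjusted p = 0.00059). In glycolysis and the pentose phosphate pathway 9 of 26 rose (34.6%) and 6 fell (23.1%), with a median of 0.11. Pgam1, phosphoglycerate mutase, rose from 32.3 and 35.3 to 61.6 and 89.9 (log2 difference 1.12, SE 0.12, adjusted p = 0.00097), while Slc2a3, the glucose transporter GLUT3, fell from 32.8 and 32.0 to 8.80 and 6.82 (log2 difference -1.93, SE 0.11, adjusted p = 0.00013). Slc2a1, the transporter GLUT1, was 16.9 and 17.0 fresh and 12.2 and 12.97 stimulated, and its called difference of -0.41 was lost without either fresh library and turned to 0.13 at an equal FPKM sum.

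Among lipid genes, some enzymes of synthesis rose and cholesterol exporters fell. Cholesterol synthesis and uptake had 10 of 27 tested genes higher (37.0%) and 7 lower (25.9%, near the 27.3% of all genes). Its median of 0.13 turned to -0.03 without the cKO stimulated library. Idi1, an enzyme of the isoprenoid steps, rose from 14.2 and 18.8 to 34.3 and 46.0 (log2 difference 1.23, SE 0.08, adjusted p = 0.00023), and Sc5d, an enzyme of the last steps, from 23.1 and 41.3 to 63.8 and 87.8 (log2 difference 1.25, SE 0.22, adjusted p = 0.0056). The cholesterol exporters Abca1 and Abcg1 fell from 7.01 and 3.86 to 1.03 and 0.603 (log2 difference -1.79, SE 0.20, adjusted p = 0.0011) and from 28.1 and 23.9 to 11.8 and 9.89 (log2 difference -1.19, SE 0.11, adjusted p = 0.00057), as did Mylip, a ubiquitin ligase of cholesterol uptake, from 17.9 and 17.3 to 5.19 and 5.04 (log2 difference -1.61, SE 0.09, adjusted p = 0.00015). Fatty acid synthesis had 9 of 14 tested genes higher and 3 lower (median 0.51), with Acsl4, which activates arachidonic acid, from 21.4 and 21.1 to 46.2 and 53.9 (log2 difference 1.20, SE 0.09, adjusted p = 0.00035).

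YAP works with TEAD factors under control of the Hippo kinases, so their genes were followed in the same contrast. Of 29 Hippo pathway and TEAD genes 19 were tested, and 3 rose and 11 fell, with a median of -0.32 that turned to 0.23 at an equal FPKM sum. Stk4, the Hippo kinase MST1, fell from 128 and 123 to 62.4 and 60.9 (log2 difference -1.01, SE 0.07, adjusted p = 0.00025), and Lats2, the kinase that phosphorylates YAP, from 35.1 and 31.4 to 16.1 and 12.5 (log2 difference -1.17, SE 0.09, adjusted p = 0.00033). Tead1 was 0.0852 and 0.0236 fresh and 1.12 and 1.22 stimulated (log2 difference 1.04, SE 0.16, adjusted p = 0.0030), low in all libraries. Only 11 of 24 YAP-TEAD target genes were tested, of which 5 rose and 5 fell, and their median of 0.05 turned to -0.42 at an FPKM minimum of 5 and to -0.18 with the leading transcript alone. Myof, a membrane repair protein, rose from 0.0449 and 0.0475 to 3.75 and 4.10 (log2 difference 2.23, SE 0.15, adjusted p = 0.00021), and Gadd45a, a stress and DNA damage gene, fell from 19.7 and 20.5 to 3.70 and 5.52 (log2 difference -1.93, SE 0.14, adjusted p = 0.00027).

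TGF-beta and activin signalling, which sustains Foxp3 in induced Tregs, moved in both directions. Of 22 tested genes 10 rose (45.5%) and 7 fell (31.8%, against 27.3% of all genes), and the median of 0.12 turned to -0.05 at an FPKM minimum of 5. Tgfbr1, the type I receptor for TGF-beta, rose from 48.9 and 56.3 to 128 and 166 (log2 difference 1.46, SE 0.09, adjusted p = 0.00018), and Bmpr2, the type II receptor for bone morphogenetic proteins, from 7.03 and 7.05 to 22.6 and 22.5 (log2 difference 1.55, SE 0.15, adjusted p = 0.00070). Smad7, the inhibitory SMAD, fell from 61.1 and 59.2 to 27.4 and 30.9 (log2 difference -1.02, SE 0.08, adjusted p = 0.00042), as did Tgif1, a SMAD co-repressor, from 112 and 110.4 to 50.7 and 43.6 (log2 difference -1.22, SE 0.09, adjusted p = 0.00027). Acvr1c, the activin receptor ALK7, was 0.339 and 0.483 fresh and 3.29 and 1.47 stimulated (log2 difference 1.21, SE 0.27, adjusted p = 0.012), with the WT value above the cKO value, and its call was lost without the WT fresh library.

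Genes of cell death moved more often down than up. In the BCL2 family and death receptors 3 of 22 tested genes rose and 10 fell, and the median of -0.30 turned to 0.25 at an equal FPKM sum. Bcl2l11, the pro-death protein BIM, fell from 42.3 and 41.6 to 16.5 and 14.4 (log2 difference -1.39, SE 0.08, adjusted p = 0.00016), a call lost with the deposited gene names, and Pmaip1, the pro-death protein NOXA, from 39.2 and 50.6 to 13.8 and 23.5 (log2 difference -1.26, SE 0.12, adjusted p = 0.00057). Tnfsf10, the death ligand TRAIL, rose from 15.1 and 15.2 to 30.4 and 39.4 (log2 difference 1.14, SE 0.12, adjusted p = 0.00086). Among cytotoxic granule genes 2 of 15 tested rose and 6 fell (median -0.46, or -0.01 at an equal FPKM sum). Ctsw, a protease of cytotoxic lymphocytes, rose from 41.8 and 42.8 to 149.8 and 199 (log2 difference 2.00, SE 0.11, adjusted p = 0.00012).

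Responses of the 2 genotypes lay close for most genes. The median absolute gap between the cKO and the WT response was 0.18 on the log2 scale, and 141 genes differed by at least 2-fold, with 1 library per genotype and state and therefore no test. Among called genes the widest gaps were those of the following 5. Snhg9, a noncoding host RNA of a small nucleolar RNA, was 25.8 and 3.83 FPKM in fresh cells and listed at 0 in both stimulated libraries. Ubald2, a gene with a ubiquitin-associated domain, was 72.9 and 61.0 fresh and 7.33 and 21.6 stimulated, a change of -3.15 in WT and -1.45 in cKO cells. AA467197, a mitochondrial gene that hosts a microRNA, changed by 2.89 in WT and 0.72 in cKO cells, and its call was lost without the WT fresh library. Ly6c2, a surface antigen with the near-identical neighbour Ly6c1, changed by -0.68 in WT and -2.29 in cKO cells, and its call was lost without the cKO fresh library. Insl3, which overlaps Jak3, was 8.27 and 2.12 FPKM after stimulation and near 0 before it, and fragments of the overlapping genes may be shared between them.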

How the data were processed

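RNA of 6 libraries was sequenced, and the authors deposited 1 table of FPKM values per transcript. The submitters' processing notes name FastQC, TopHat, Cuffdiff, Cuffnorm and mm10, without versions or roles, and the Cuffnorm scaling option is not given in the sources used here. Value columns marked YKP were read as YAP cKO, the one genotype left. Depth is known only through the steps between low values, so errors cover the spread between libraries.

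Each transcript was counted once (165 stood in more than 1 row) and FPKM were summed per gene, with symbols from RefSeq for 32101 of 32547 transcripts and deposited symbols for 397, giving 23962 genes. Genes with at least 1 FPKM in 2 or more libraries (11214) were fitted on log2(FPKM + 1) with limma 3.58.1 (R 4.3.3; population plus genotype, 6 libraries, 2 residual degrees of freedom, trended prior, Benjamini-Hochberg adjustment). On simulated data for this comparison 76% of 100 changes of log2 1 and 98% of 100 of log2 2 were recovered, with 6 unchanged genes called. The simulation changed only those genes, none of low mean level, with independent noise and no shift of scale between libraries. It gives no false-call rate for the real data, where far more genes were called and the scale is open. Genotype was the pairing factor because each genotype supplied 1 fresh and 1 stimulated library.

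Genes were named by rule: the 20 largest rises and falls at 5 FPKM or more, the 4 largest called members of each list and any called against its median, Foxp3, Il2ra, Yap1, Ikzf2, Ctla4 and Myc, and the 5 widest response gaps. The members and the 47 lists were chosen with earlier results of these data known. Near copies were searched with BLAST+ 2.17.0 (95% identity over 50% of the transcript). Alternatives were another pseudocount, other filters, scalings, transcript handling, designs and leaving out each nTreg library. Results for some genes are not reported here.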

Additional observations from a re-analysis of the deposited data

Results flagged for a closer look

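In 2 gene lists the median response had opposite signs in WT and in YAP cKO nTregs. The difference was not tested, since each genotype had 1 library per state. For cytokines and chemokines the median of 16 tested genes was 0.00971 on the log2 scale in WT and -0.08 in cKO cells. For YAP-TEAD target genes the median of 11 tested genes was -0.03583 in WT and 0.15 in cKO cells.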

How the results depend on the processing

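The number of calls depended on filter, scaling and libraries. Without the filter 3945 genes were called higher and 2588 lower, and at an equal FPKM sum 6584 and 1025. Leaving out 1 nTreg library gave 1331 to 2401 genes higher and 1548 to 2963 lower, fewest without a fresh library (WT: 1359 and 1548; cKO: 1331 and 1697). With genotype as the replicate block on the 4 nTreg libraries alone 2427 were higher and 2876 lower, and with no replicate block 2308 and 2771. The genotypes pair by design. The other settings stayed within 1.5 times of the reported counts.

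At an equal FPKM sum 28 named genes changed from lower to slightly higher, among them Nfil3 0.023, Jak3 0.025, Smurf2 0.030, Rgs10 0.059, Ccnd3 0.062, Ogdh 0.074, Mrps28 0.087, Elovl5 0.094, Crim1 0.11, Smad4 0.11, Slc39a7 0.12, Rgs1 0.12, Dnajc3 0.13, Srebf2 0.13, Slc2a1 0.13, Srebf1 0.16, Hsph1 0.16, Bpgm 0.17, Uqcrfs1 0.18, Tgfbr2 0.19, Taldo1 0.19, Insig1 0.19, Dnaja1 0.28, Il2rb 0.28, Sec61b 0.30 and Dnajb6 0.32. Rpl26 was -0.24 with deposited symbols and Map1lc3a 0.30 with its leading transcript.

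List medians that changed sign at an equal FPKM sum were inhibitory checkpoint receptors 0.32, integrins and adhesion receptors 0.14, cytosolic ribosomal proteins 0.38, BCL2 family and death receptors 0.25, S100, annexin and galectin genes 0.14, RNA decay factors and regulators 0.19, autophagy and lysosome genes 0.19, Hippo pathway and TEAD factors 0.23, nuclear-retained and growth-arrest noncoding RNAs 0.26, regulators of G protein signalling 0.13 and NK and CD8 T cell markers 0.071. The median of cytokines and chemokines was -0.0012 with a pseudocount of 0.1 and -0.093 to 0.060 with 1 library left out, negative without the WT fresh, WT stimulated or cKO stimulated library. Leaving out 1 library gave -0.021 to 0.24 for TCR-induced transcription factors, -0.025 to 0.21 for cholesterol synthesis and uptake and -0.061 to 0.17 for YAP-TEAD target genes, each negative without the cKO stimulated library, and -0.013 to 0.28 for the IL-2 receptor and STAT5 response, negative without the WT stimulated library. At an FPKM minimum of 5 YAP-TEAD target genes had -0.42 and TGF-beta and activin signalling -0.053, and with leading transcripts YAP-TEAD target genes had -0.18. At an equal FPKM sum the median of all genes was itself 0.46. The cause of these changes was not tested.

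With 1 library per genotype and state, the difference between the genotypes' responses could not be tested. Small differences near the shift of 0.51 have no fixed direction between the deposited scale and an equal FPKM sum. Scaling by the median of ratios shifted the median of all genes by 0.04.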

Other observations

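Of 21 tested S100, annexin and galectin genes 4 rose and 11 fell, and the median of -0.42 turned to 0.14 at an equal FPKM sum. S100a4, a calcium-binding protein of motile cells, fell from 319 and 647 to 73.5 and 125 FPKM (log2 difference -2.23, SE 0.10, adjusted p = 7.5e-05). Vim, the intermediate filament vimentin, rose from 239 and 314 to 684 and 975 (log2 difference 1.57, SE 0.08, adjusted p = 0.00010), and Lmna, the nuclear lamin A/C, fell from 3.66 and 7.53 to 0.565 and 0.437 (log2 difference -2.07, SE 0.24, adjusted p = 0.0013). The cKO library held the higher value of S100a4 and Vim in both states.

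Long noncoding RNAs moved both ways, 5 of 16 tested higher and 7 lower, with a median of -0.26 that turned to 0.26 at an equal FPKM sum. Malat1, a nuclear-retained RNA, fell from 3922 and 3589 to 1650 and 1295 (log2 difference -1.36, SE 0.13, adjusted p = 0.00064), and Snhg8, a snoRNA host, from 103 and 96.0 to 27.2 and 28.2 (log2 difference -1.81, SE 0.08, adjusted p = 6.8e-05). Mir17hg, the host transcript of the miR-17 cluster, rose from 15.7 and 18.2 to 35.6 and 32.2 (log2 difference 0.96, SE 0.10, adjusted p = 0.00096), and Snhg3 from 20.1 and 19.5 to 45.4 and 35.0 (log2 difference 0.97, SE 0.10, adjusted p = 0.00088). Autophagy and lysosome genes fell in 16 of 34 and rose in 2, with a median of -0.32 that turned to 0.19 at an equal FPKM sum. Atg2a, a lipid transfer protein of autophagosome growth, fell from 13.2 and 14.1 to 7.07 and 7.83 (log2 difference -0.80, SE 0.10, adjusted p = 0.0014), a call lost at an equal FPKM sum, while Lamp2, a lysosomal membrane protein, was 19.6 and 25.6 fresh and 30.7 and 34.6 stimulated (log2 difference 0.52), a call lost without the WT fresh library.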
